A study of Mus musculus with 6 samples.

Results

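RNA-seq of activated B cells was examined for 10 transcription factors that hold a cell in the B cell state or move it towards the plasma cell state: *Prdm1* and *Irf4* on the plasma cell side, *Pax5*, *Bcl6*, *Bach2*, *Irf8*, *Spib* and *Ebf1* on the B cell side, and *Ikzf1* and *Ikzf3*, which act in both states. The 10 genes were taken by symbol from the 54446 genes of the deposited table, and all 10 were among the 12322 genes tested. Naive B cells were isolated by negative selection from spleens of adult mice of a mixed C57BL/6J X CBA background, and kept in culture with LPS (20 µg/ml) and the cytokine IL-4 (20 ng/ml) until day 7. The groups are 3 libraries labelled TENT5C KO and 3 labelled wild type, called KO and WT here by these labels. KO mice carry a disrupted *Tent5c* gene, which encodes a cytoplasmic poly(A) polymerase, in the germline of 1 line bred from heterozygous parents. Each replicate number, which the labels also name as the batch, joins 1 KO and 1 WT littermate, and these are pairs 1, 2 and 3 in the following.

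In a resting or dividing B cell, PAX5 and EBF1 keep genes of the B cell receptor and its coreceptors active, whereas BCL6 and BACH2 repress *Prdm1*. When IRF4 accumulates after activation it turns on *Prdm1*, whose product Blimp-1 represses *Pax5*, *Bcl6* and *Spib* and lets antibody secretion begin. IRF8 and SPIB act against this step, so the factors form mutually repressing groups, and LPS is a classical trigger of the switch in culture.

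Promoter sequences were searched for short motifs, which does not by itself show such control. RefSeq start sites on GRCm38.p6 were found for 9 of the 10 genes (13 windows of the 250 bases before a start), all but *Ikzf3*. These windows were searched on both strands for an IRF element (GAAANNGAAA), a Blimp-1 core (GTGAAAG), a BCL6 element (TTCNNNGAA), an element of AP-1 and BACH proteins (TGANTCA), an EBF element (CCCNNGGG) and an Ikaros element (TGGGAA). Over all 32851 windows of that length, these letters were found in 2.98%, 3.57%, 7.02%, 6.75%, 11.8% and 21.6%. The windows of *Prdm1* (chr10:44458749-44458998, minus strand), of the second start of *Bcl6* (chr16:23981284-23981533, minus strand) and of the first start of *Irf8* (chr8:120736108-120736357, plus strand) are shown as examples. They were picked by hand from the windows that hold matches for factors of the same list. Capitals mark matches.
Prdm1: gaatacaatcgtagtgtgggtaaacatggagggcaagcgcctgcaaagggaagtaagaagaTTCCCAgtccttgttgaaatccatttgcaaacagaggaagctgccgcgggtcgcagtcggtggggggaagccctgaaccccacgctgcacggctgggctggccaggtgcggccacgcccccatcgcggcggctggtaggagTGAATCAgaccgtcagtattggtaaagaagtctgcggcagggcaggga
Bcl6: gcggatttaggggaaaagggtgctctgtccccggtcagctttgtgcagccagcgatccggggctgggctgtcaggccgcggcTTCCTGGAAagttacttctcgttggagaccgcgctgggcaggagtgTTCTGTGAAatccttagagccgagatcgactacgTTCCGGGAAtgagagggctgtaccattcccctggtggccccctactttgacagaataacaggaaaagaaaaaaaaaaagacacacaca
Irf8: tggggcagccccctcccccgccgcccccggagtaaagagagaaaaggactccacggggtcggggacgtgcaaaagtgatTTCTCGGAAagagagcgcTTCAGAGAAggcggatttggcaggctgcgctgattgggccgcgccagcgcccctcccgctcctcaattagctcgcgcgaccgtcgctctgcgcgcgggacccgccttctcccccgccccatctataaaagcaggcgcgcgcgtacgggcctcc
The *Prdm1* window holds TGAATCA, an AP-1 or BACH match, 48 bases before the start, and an Ikaros match 189 bases before it. The *Bcl6* window holds 3 BCL6 matches, TTCCTGGAA, TTCTGTGAA and TTCCGGGAA, at 168, 122 and 88 bases before the start. The *Irf8* window holds 2 BCL6 matches, TTCTCGGAA and TTCAGAGAA, at 171 and 153 bases. Both minus-strand windows lie inside the annotated genes but outside exons, and the *Irf8* window ends at the first base before the gene. Elsewhere, *Bach2* and the first start of *Bcl6* had 1 BCL6 match each, *Spib* 2 overlapping EBF matches and *Ikzf1* 1, *Ebf1* 1 IRF match in a window that overlaps an exon, and the second starts of *Irf8* and *Ebf1* 1 Ikaros match each, while the windows of *Irf4* and *Pax5* had none. The Blimp-1 core was found in none of the 13 windows, which says only that these letters are not there. The matches describe the sequence and are not sites shown to be bound, by the factor an element is named after or by any other protein.

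The 6 libraries had 5393558 to 6793520 fragments on genes, and a member had between 76 and 5256 fragments in a library. Values are normalized counts, the fragments of a gene divided by the size factor of its library. The targeted gene *Tent5c* stood at 1255, 767 and 1585 normalized counts in pairs 1, 2 and 3 under the WT label and at 1993, 993 and 1170 under the KO label, so its transcript was higher in KO in pairs 1 and 2 and lower in pair 3, and does not check the labels. Of the B cell markers, *Ms4a1*, which encodes CD20, had a mean of 10958 normalized counts over the 6 libraries, and *Cd79a* had 1531, 1611 and 1405 in WT and 1219, 1320 and 1398 in KO. Transcripts of 5 plasma cell markers summed to 9926 to 20939 normalized counts in WT and 9581 to 16222 in KO, although *Tnfrsf17* was too low to be tested. The T cell (7 genes), NK cell (3 genes) and erythroid (4 genes) markers had no gene with a mean of 10 or more and summed to at most 53.0, 5.23 and 0.953 in a library. The 7 myeloid markers summed to 63.8 to 86.7 in WT and 18.1 to 128 in KO, with *Ly6g*, *S100a8* and *S100a9* at 0 in all 6 libraries, which bounds each level at 3 fragments (2.72 to 3.61 normalized counts, depending on the library, for counting error alone). Of 6 dendritic cell markers, *Siglech* and *Clec9a* were at 0, while *Xcr1* reached at most 1.89 and *Itgax* at most 6.02. The sum, 473 to 703 in WT and 613 to 1005 in KO, came mostly from *Flt3* (mean 486), with nearly all the rest from *Zbtb46*. This sum was higher in KO in all 3 pairs (703 and 783, 643 and 1005, and 473 and 613 in WT and KO), as was *Flt3*. *Zbtb46* was higher in KO in pair 1 (215 and 239 in WT and KO) and pair 3 (173 and 230). In pair 2 *Zbtb46* was lower in KO (214 and 203). Dendritic cells also use *Irf8* and *Spib*, and the part of such cells in the values of these genes was not tested. In these bulk samples, fewer cells of a type and less RNA per cell cannot be told apart.

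None of the 10 factors differed between the libraries labelled KO and WT beyond the spread of the pairs. Adjusted *p*-values ran from 0.970 to 0.996 (limma with the pair as a block, Benjamini-Hochberg over all 12322 genes), and 0 of 10 passed 0.05, against a background of 0 genes, or 0% of those tested. At an unadjusted *p* under 0.05, where 4.7% of all genes stood (373 lower and 206 higher), 0 members stood, the smallest value being 0.222 for *Ebf1*. In DESeq2, which called 0.232% of the 9894 genes to which it gave an adjusted *p* (22 lower and 1 higher), 0 members passed, and the quasi-likelihood test of edgeR passed 0 genes, with unadjusted *p*-values under 0.05 for 368 genes lower and 200 higher in KO. The count over all genes rests on pair 1, since without it limma called 168 genes lower and 3 higher in KO, with 0 members among them. The levels of the 2 genotypes overlapped for all 10 factors, while 6.83% of all genes did not overlap. Of the 10 members, 0 were higher in KO in all 3 pairs, beside 11.7% of all genes, and 0 were lower in all 3, beside 13.1%. No factor thus had 1 direction in all 3 pairs, and the rest of the data is given pair by pair.

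**Figure D1:**
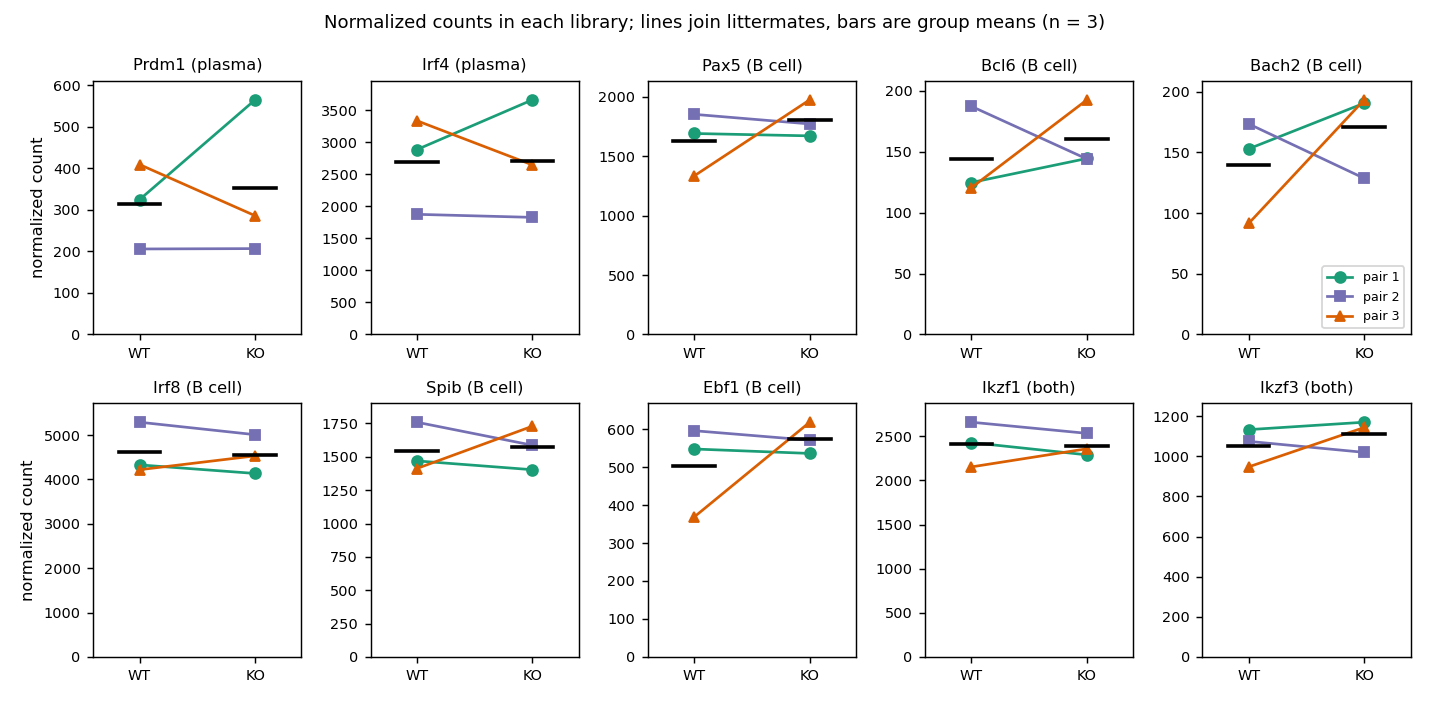
Normalized counts (linear axis from 0) of the 10 factors in the 3 WT and 3 KO libraries, with lines joining littermates and black bars at the group means (n = 3). In pair 1 *Prdm1* and *Irf4* are higher in KO, and in pair 3 they are lower in KO while the 6 B cell factors are higher.

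*Prdm1* (ENSMUSG00000038151; chromosome 10 of GRCm38, 44437177 to 44528501, minus strand) encodes Blimp-1, the repressor that drives plasma cell differentiation. Its normalized counts in pairs 1, 2 and 3 were 325, 206 and 409 under the WT label and 565, 207 and 286 under the KO label. The KO library of pair 1 was the highest of all 6, both libraries of pair 2 were the lowest, and the groups overlapped throughout. As ratios of KO to WT these are 1.74 in pair 1, with a 95% interval of 1.52 to 1.99, 1.00 (0.824 to 1.22) in pair 2 and 0.699 (0.597 to 0.817) in pair 3. These intervals, exact binomial ones on the recovered fragments, cover counting error only and compare the libraries of a pair, not the genotypes. The counting intervals of pairs 1 and 3 lie on opposite sides of 1. The means were 313 ± 102 in WT and 353 ± 188 in KO (SD, n = 3 each). On the log2 scale KO differed from WT by 0.096, with a standard error of 0.23 and a 95% interval of −0.45 to 0.64 (limma adjusted *p* = 0.984).

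*Irf4* (ENSMUSG00000021356; chromosome 13, 30749226 to 30766976, plus strand), the dose-dependent factor that precedes Blimp-1, had 2886, 1876 and 3338 normalized counts in WT and 3664, 1828 and 2647 in KO. The libraries stood in nearly the order of *Prdm1*: KO of pair 1, WT of pair 3, WT of pair 1 and KO of pair 3, and then both libraries of pair 2, which alone change places. The KO to WT ratio was 1.27, 0.975 and 0.793 in pairs 1, 2 and 3. With means of 2700 ± 749 in WT and 2713 ± 920 in KO (SD, n = 3 each), the log2 difference was −0.0091 with a standard error of 0.12 and a 95% interval of −0.30 to 0.29 (limma adjusted *p* = 0.996), a value whose sign turned under TMM scaling and quantile normalization.

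*Pax5* (ENSMUSG00000014030; chromosome 4, 44524757 to 44710487, minus strand), the factor that commits cells to the B lineage, had 1691, 1853 and 1334 normalized counts in WT and 1671, 1772 and 1975 in KO. The genotypes were alike in pairs 1 and 2 within counting error (ratios 0.988 and 0.956), while in pair 3 the KO library was the highest and the WT library the lowest of the 6, a ratio of 1.48 (counting interval 1.38 to 1.59). Its log2 fold change came to 0.16, with a standard error of 0.13 and a 95% interval of −0.14 to 0.46 (limma adjusted *p* = 0.970). *Ebf1* (ENSMUSG00000057098; chromosome 11, 44617317 to 45008091, plus strand), which acts with PAX5 from the earliest B cell stages, had 548, 596 and 368 normalized counts in WT and 536, 571 and 618 in KO. Its 6 libraries stood in the same order as those of *Pax5*, from KO of pair 3 down to WT of pair 3. Its ratio was 1.68 in pair 3, beside 0.979 and 0.958 in pairs 1 and 2. The log2 fold change of *Ebf1* was 0.22, with a standard error of 0.16 and a 95% interval of −0.17 to 0.61 (limma adjusted *p* = 0.970).

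*Bach2* and *Bcl6*, the repressors of *Prdm1*, were the members with the fewest fragments. *Bach2* (ENSMUSG00000040270; chromosome 4, 32238804 to 32586108, plus strand) had 153, 174 and 91.5 normalized counts in WT and 191, 129 and 193 in KO. Its ratios were 1.25, 0.741 and 2.11 in that order of pairs, the last being the widest ratio of any member in any pair, and the WT library of pair 3 rests on 76 fragments. Its log2 fold change of 0.32 was the largest of the members and had the widest interval, −0.31 to 0.95 (standard error 0.26, adjusted *p* = 0.970 from limma). *Bcl6* (ENSMUSG00000022508; chromosome 16, 23965052 to 23988852, minus strand), the factor of germinal center B cells, had 125, 187 and 120 normalized counts in WT and 144, 144 and 192 in KO. The KO library was higher in pairs 1 and 3 and lower in pair 2, with ratios of 1.16, 1.599 and 0.769. In pair 1 the counting interval of *Bcl6*, 0.912 to 1.47, held 1.

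*Irf8* and *Spib*, the ETS-IRF partners of the B cell side, varied least among the B cell factors. *Irf8* (ENSMUSG00000041515; chromosome 8, 120736358 to 120756694, plus strand) had 4329, 5291 and 4220 normalized counts in WT and 4136, 5010 and 4533 in KO. Both libraries of pair 2 were above the other 4. Its highest library was 1.28 times its lowest, and the 95% interval of its log2 fold change, −0.17 to 0.14, holds folds from 0.889 to 1.10. *Spib* (ENSMUSG00000008193; chromosome 7, 44525993 to 44532071, minus strand) had 1469, 1760 and 1412 normalized counts in WT and 1403, 1587 and 1730 in KO, with ratios of 0.955, 0.902 and 1.22. The log2 fold change of *Spib* was 0.026, with a 95% interval of −0.20 to 0.25. The zinc finger factors *Ikzf1* (Ikaros; ENSMUSG00000018654; chromosome 11, 11685003 to 11772926, plus strand) and *Ikzf3* (Aiolos; ENSMUSG00000018168; chromosome 11, 98464902 to 98546031, minus strand) ranged over 1.24-fold each across the 6 libraries. *Ikzf1* had 2430, 2661 and 2154 normalized counts in WT and 2291, 2535 and 2360 in KO. *Ikzf3* had 1133, 1075 and 948 in WT and 1170, 1020 and 1144 in KO. Their log2 fold changes were −0.0079 (95% interval −0.17 to 0.16, with the opposite sign under TMM scaling) and 0.081 (−0.12 to 0.28), so that of all 10 factors *Irf8* and *Ikzf1* are those whose intervals leave the least room for a difference.

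**Figure D2:**
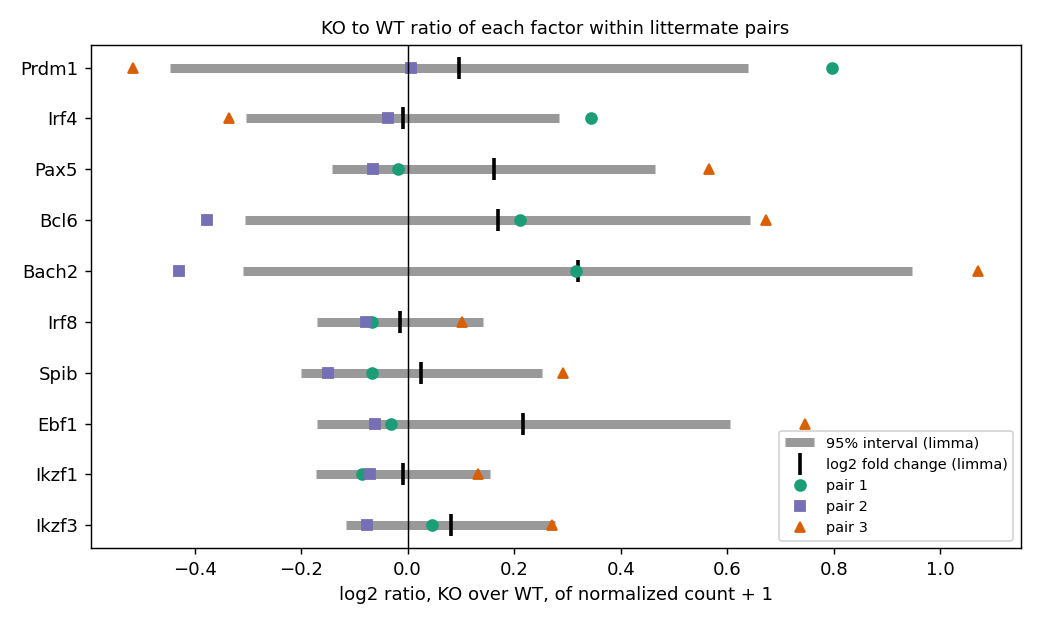
Log2 ratio of KO to WT in normalized count + 1 for each factor, with 1 symbol per littermate pair, a black tick for the limma log2 fold change and a grey bar for its 95% interval. All 10 grey bars cross 0, and pair 3 is the farthest right for the B cell factors and the farthest left for *Prdm1* and *Irf4*.

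Within the pairs, 5 of the 10 factors were higher in KO in pair 1, 1 in pair 2 and 8 in pair 3, beside 46.8%, 50% and 50.4% of all genes tested. All 6 B cell factors were higher in KO in pair 3, against 2 in pair 1 and 0 in pair 2. Pair 3 also held the largest absolute log2 ratio for 8 of the 10 factors, as it did for 46.2% of all genes. The counting interval of the ratio left out 1 for 5 of the 10 in pair 1, beside 16.5% of all genes, for 4 in pair 2, beside 17.6%, and for 10 in pair 3, beside 28%. These intervals narrow with the number of fragments of a gene. The pattern of lower in KO in pairs 1 and 2 and higher in pair 3 was shown by 5 of the 10 members (*Pax5*, *Irf8*, *Spib*, *Ebf1* and *Ikzf1*) and by 12.7% of all genes, a pattern that was picked out after the values had been seen. Leaving out pair 3 turned the log2 fold change of 6 factors from above to below 0: *Pax5* (−0.041), *Bcl6* (−0.083), *Bach2* (−0.057), *Spib* (−0.11), *Ebf1* (−0.046) and *Ikzf3* (−0.015). It also turned that of *Irf4* from below to above 0 (0.15). Leaving out pair 1 turned that of *Prdm1* to −0.25, of *Irf8* to 0.012 and of *Ikzf1* to 0.031. Without pair 2, those of *Irf4* (0.0049), *Irf8* (0.019) and *Ikzf1* (0.023) turned to above 0.

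The balance of the 2 programs was taken per library as the mean log2(normalized count + 1) of *Prdm1* and *Irf4* minus that of the 6 B cell factors. For pairs 1, 2 and 3 it came to 0.48, −0.42 and 1.05 under the WT label and to 0.99, −0.24 and 0.047 under the KO label. The WT library of pair 3 and the KO library of pair 1 had the highest values, and both libraries of pair 2 the lowest. Gene length is not taken out of this measure. A value of 0 is therefore not a point of equal levels, and only differences between libraries can be read. The 3 pairs differed, as KO minus WT, by 0.51, 0.18 and −1.0, a mean of −0.10 ± 0.79 (SD, n = 3 pairs), so the mean difference was smaller than the spread between pairs. In pair 1 the change lay in the plasma cell factors (0.57 on the log2 scale) rather than the B cell factors (0.058), in pair 2 it lay in the B cell factors (−0.19, beside −0.015), and in pair 3 the plasma cell factors moved by −0.43 and the B cell factors by 0.58. The balance was −0.10 in the mean of the pairs but 0.35 without pair 3. The summed level of the plasma cell markers followed this order nearly, with 20939 in WT of pair 3, 16222 in KO of pair 1, 12761 in WT of pair 1, 11634 in KO of pair 3, and 9926 and 9581 in WT and KO of pair 2.

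**Figure D3:**
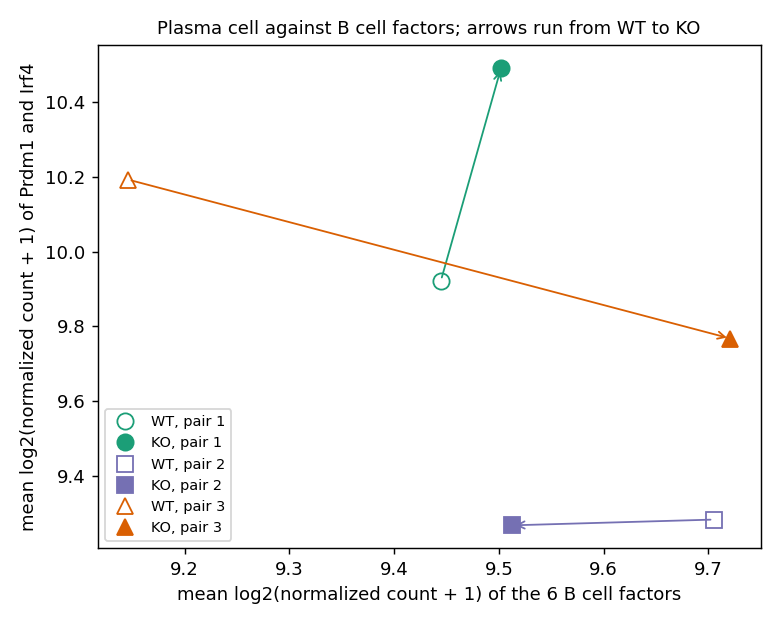
Mean log2(normalized count + 1) of *Prdm1* and *Irf4* (vertical axis) against that of the 6 B cell factors (horizontal axis) in each library, with an arrow from WT to KO of each pair. The arrow of pair 1 runs upwards, that of pair 2 to the left and that of pair 3 downwards to the right.

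Differences between the pairs, whatever the genotype, were largest for the plasma cell factors. Between the pair with the highest and that with the lowest mean, the log2 level differed by 1.05 for *Prdm1* and 0.81 for *Irf4*, beside 0.15 (*Ikzf3*) to 0.36 (*Bach2*) for the other 8. In an F test of the pair in the same limma fit, *Irf4* had an adjusted *p* of 0.114 (unadjusted 0.00266), *Prdm1* 0.287 (unadjusted 0.0201) and *Irf8* 0.297 (unadjusted 0.0221). None of the 10 passed 0.05 after adjustment, against 1.15% of all genes, and these 3 stood at an unadjusted *p* under 0.05, against 12.5% of all genes. *Prdm1* and *Irf4* were lowest in pair 2, where *Irf8* was highest.

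Levels of different genes were compared as normalized counts per kilobase of merged exons. In that unit *Irf8* had the highest median over the 6 libraries (628), followed by *Irf4* (564), *Spib* (533), *Ikzf1* (415), *Pax5* (196), *Ikzf3* (126), *Ebf1* (57.3), *Prdm1* (54.7), *Bcl6* (21.5) and *Bach2* (16.4). The ranges over libraries overlapped between the neighbours *Irf8* and *Irf4*, *Irf4* and *Spib*, *Ebf1* and *Prdm1*, and *Bcl6* and *Bach2*. Within libraries, the first 3 of these neighbours changed places, with *Irf8* above *Irf4* in 4 of 6 libraries, *Irf4* above *Spib* in 3 and *Ebf1* above *Prdm1* in 3, and do not differ beyond their spread. *Bcl6* was above *Bach2* in 6 of 6 libraries, by 0.56 ± 0.30 on the log2 scale (SD, n = 6). *Irf4* lay above 95.04% of the genes tested by mean level per kilobase and *Prdm1* above 58.7%, so after 7 days the cultures held transcripts of both programs, with *Pax5* at more per kilobase than *Prdm1* in every library. Merged exons count all annotated isoforms, which lowers the value of a gene that uses only a short one.

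The genes whose profile over the 6 libraries lay nearest to that of a factor were sought among the 9587 other genes with a mean of at least 50, by the root mean square difference of centered log2 values, as a description with no test. Nearest to *Prdm1* were *Mettl23* (0.10), *Trp53inp1* (0.12) and *Tent5c* (0.14), beside a median of 0.54 over all genes compared. *Irf4* ranked 5 in nearness to *Prdm1* and *Xbp1*, which encodes the transcription factor of the secretory program, ranked 15. *Tent5c*, the gene that the KO targets, stood in the same order over the 6 libraries as *Prdm1*. Nearest to *Irf4* were *Gm11131* (0.058), *Pqlc3* (0.077) and *Tmem181b-ps* (0.084), beside a median of 0.41, the last of them a pseudogene whose reads may be shared with its parent gene. Nearest to *Pax5* were *Palm* (0.033), *Notch2* (0.036), a receptor that marginal zone B cells depend on, and *A930004J17Rik* (0.043), beside a median of 0.21, while *Ebf1* ranked 57. The libraries of a pair share litter and batch, so these 6 points are not independent.

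Downstream and partner genes were described in 5 lists, and in none did a gene pass 0.05 after adjustment in limma or DESeq2. Of 18 plasma cell genes, 16 were tested, 7 with a log2 fold change above 0 and 9 below, with a median of −0.049 beside 0.00067 over all genes. Their median log2 ratios in pairs 1, 2 and 3 were 0.22, −0.039 and −0.50. Of the 16, 1 was higher and 3 were lower in KO in all 3 pairs, beside 11.7% and 13.1% of all genes. *Xbp1* had 4092, 3215 and 6463 normalized counts in WT and 6743, 3806 and 4906 in KO, with log2 ratios of 0.72, 0.24 and −0.40, the signs of *Prdm1* in all 3 pairs, although *Prdm1* itself was within counting error in pair 2. *Zbtb20*, a zinc finger factor needed for plasma cell lifespan, was higher in KO in all 3 pairs (0.22, 0.26 and 0.37), and its log2 fold change came to 0.28 with a standard error of 0.069 (limma adjusted *p* = 0.737). *Fkbp11*, which encodes an ER-resident prolyl isomerase of secretory cells, had 116, 56.5 and 167 normalized counts in WT and 72.7, 42.9 and 32.7 in KO. It was lower in KO in all 3 pairs, with log2 ratios of −0.67, −0.39 and −2.32, and its log2 fold change came to −1.13 with a standard error of 0.36 (limma adjusted *p* = 0.970), or −0.53 without pair 3. *Mzb1*, an ER cofactor of antibody assembly, had log2 ratios of −0.12, −0.20 and −0.67, a log2 fold change of −0.33 that was −0.16 without pair 3. Apart from *Xbp1*, the genes named here were picked for having 1 direction in all 3 pairs. *Prdm1* has no such direction, so these genes could not share its signs and do not stand for the whole list.

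All 19 genes of the B cell identity list were tested, 11 above 0 and 8 below, with a median of 0.030 and medians of −0.091, −0.072 and 0.24 in pairs 1, 2 and 3, the opposite signs of the plasma cell list in pairs 1 and 3. Complement receptor gene *Cr2* had 66.1, 38.7 and 25.3 normalized counts in WT and 96.3, 64.8 and 59.9 in KO, higher in all 3 pairs (log2 fold change 0.83, standard error 0.20, adjusted *p* = 0.737 from limma). *Cd79a*, a signaling chain of the B cell receptor, and *H2-Aa*, an MHC class II chain, were lower in KO in all 3 pairs, with log2 fold changes of −0.21 and −0.20 (adjusted *p* = 0.970 each from limma). Of the 19, 2 were higher and 3 lower in KO in all 3 pairs, beside 11.7% and 13.1% of all genes. Of 14 genes known to be lowered by Blimp-1, 10 were above 0 and 4 below, with a median of 0.049. Their medians per pair, 0.021, 0.049 and 0.16, were farthest from 0 in pair 3, where *Prdm1* was lower in KO. In pair 1, where *Prdm1* was higher in KO, the median was above 0 as well. Pair 3 held the largest absolute log2 ratio for 46.2% of all genes, and a link of the list to *Prdm1* was not tested. *E2f1*, a cell cycle activator, was the gene of that list with 1 direction in all 3 pairs (log2 fold change 0.36, standard error 0.13, adjusted *p* = 0.970 from limma).

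Of 40 other transcription factors of the B lineage, 39 were tested (all but *Ikzf2*), 28 above 0 and 11 below, beside 50.2% of all genes above 0. Their median was 0.038, and 8 were higher and 3 lower in all 3 pairs, beside 11.7% and 13.1% of all genes. Besides *Zbtb20*, the largest among these 11 were *Runx1* (0.22, standard error 0.088) and *Lmo2* (0.20, standard error 0.081), both regulators of early blood cells that stay active in B cells. All 20 corepressors and partners were tested, and 17 were above 0, with a median of 0.080. In all 3 pairs 4 were higher and 1 lower, beside the same shares of all genes. *Batf3* (0.20), *Junb* (0.15), AP-1 factors that pair with IRF4, and *Mta3* (0.13), a corepressor subunit used by BCL6, were the largest of these, with adjusted *p* = 0.970 each from limma. In each of the 5 lists, the medians of the 3 pairs lay farther apart than the median log2 fold change lay from 0. The lists share 8 genes: *Xbp1* and *Zbtb20* stand in the plasma cell list and that of other transcription factors, *Ciita*, *Blnk* and *Cd22* in the B cell identity and Blimp-1 lists, and *Myc*, *Id3* and *Stat6* in the Blimp-1 list and that of other transcription factors.

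**Figure D4:**
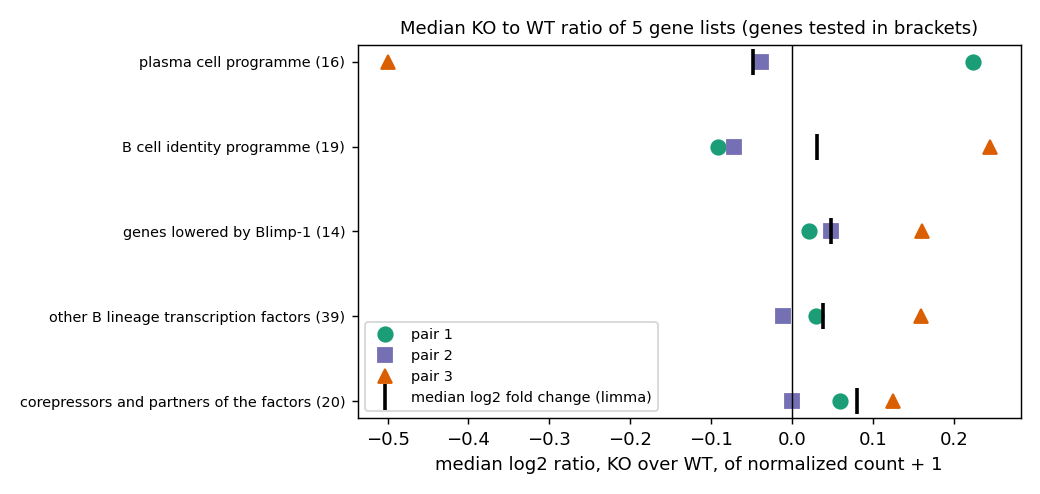
Median log2 ratio of KO to WT (horizontal axis) in each littermate pair for the genes tested of 5 lists, with a black tick for the median limma log2 fold change. The plasma cell list runs from −0.50 in pair 3 to 0.22 in pair 1, and the B cell identity list from −0.091 in pair 1 to 0.24 in pair 3.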

How the data were processed

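RNA from 3 KO and 3 WT cultures was depleted of rRNA and sequenced in strand-specific paired-end libraries. Per the methods and the labels, the authors trimmed reads with cutadapt, aligned them with STAR 2.6.1a to GRCm38 (mm10), counted them by strand on Gencode vM19 exons with featureCounts (Subread 1.6.3) and scaled each library by its DESeq2 size factor. What was deposited is thus a signal on the scale of counts. Of its values, 100% of those above 0 were whole multiples of 1 step per library within 0.01 fragments, which gave back the fragments per gene. Such scaling hides a shift common to most genes. Symbols and exon lengths came from Gencode vM21, which matched 54409 of 54446 identifiers.

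The fit was limma 3.58.1 (R 4.3.3) on log2(normalized count + 1), its variance prior following the mean level, with the pair as a block, for genes with a mean of at least 10, two-sided, over all genes. This pseudocount understates folds of low genes. The recovered fragments were also tested with edgeR 4.0.16 and with DESeq2 1.42.0. The procedures were tested on simulated data. Littermates make the pairs, and deviations from the group means correlated over genes within pairs 1, 2 and 3 at 0.328, 0.685 and 0.170. The correlation within pair 3 was below that of KO of pair 3 with WT of pair 1 (0.282). It was also below that of KO of pair 1 with WT of pair 3 (0.260). Against pair 2 the values were lower, −0.379 for KO of pair 3 and −0.337 for WT of pair 3. These correlations thus do not by themselves show that replicate 3 joins littermates, which was taken from the labels and the methods. No library was a duplicate (chi-square per gene 4.81 to 24.4 over 15 comparisons). Between the KO and WT libraries of replicates 1, 2 and 3 this chi-square came to 6.13, 4.81 and 18.0. KO of pair 3 lay nearer to WT of pair 1 (11.8) and of pair 2 (17.4) than to its own WT. WT of pair 3 lay nearer to KO of pair 1 (12.6) but farther from KO of pair 2 (24.4).

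The factors, lists and tests were chosen with earlier results of these data known. Named genes are the 10 factors, *Tent5c*, *Xbp1*, up to 3 genes per list with the largest absolute log2 fold change among those of 1 direction in all 3 pairs, and the 3 nearest profiles of *Prdm1*, *Irf4* and *Pax5*. Protein sequences were not used here. The level of 1 B cell marker is not reported here.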

Additional observations from a re-analysis of the deposited data

How the results depend on the processing

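Refitted in 13 other ways, the 10 factors gave 130 log2 fold changes, of which 112 kept their direction and 18 changed it. Part of the 112 was fixed in advance. The fits with no filter, with a mean of at least 50 and with no replicate block use the same log2 values in a balanced design. They leave each log2 fold change as it was and can move only its error and *p*. None passed an adjusted *p* of 0.05, the smallest being 0.738. With no replicate block, so with the libraries not paired, 0 genes passed. The log2 fold change of *Prdm1* is then 0.096 by design, and its standard error went from 0.23 to 0.38. *Irf4* was 0.0039, *Irf8* 0.0069 and *Ikzf1* 0.012 under quantile normalization, and *Irf4* 0.0011 and *Ikzf1* 0.0023 under TMM scaling. With 1 replicate left out, values ran from −0.25 to 0.40 for *Prdm1*, −0.19 to 0.15 for *Irf4*, −0.041 to 0.27 for *Pax5*, −0.083 to 0.44 for *Bcl6*, −0.057 to 0.69 for *Bach2*, −0.072 to 0.019 for *Irf8*, −0.11 to 0.11 for *Spib*, −0.046 to 0.36 for *Ebf1*, −0.078 to 0.031 for *Ikzf1* and −0.015 to 0.16 for *Ikzf3*. The balance, −0.10 in KO minus WT, was −0.41, −0.24 and 0.35 without pairs 1, 2 and 3. Over all genes, 0 passed in limma, DESeq2 called 22 lower and 1 higher, and leaving out 1 pair gave 0 to 168 lower and 0 to 3 higher, the most without pair 1. The 142 genes that differed between pairs became 51 with no filter. The cause was not tested. With 3 pairs, the 95% interval of *Bach2*, which rests on as few as 76 fragments in a library, still held folds from 0.807 to 1.93. RNA levels say nothing of the amount or activity of these proteins.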
